A study of Rattus norvegicus with 12 samples.

Results

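The interleukin 6 and gp130 cytokine axis was followed as 10 genes of the 30562 in the deposited table, each found by its symbol. They were the ligands Il6, Lif, Osm and Il11, the receptor subunits Il6r, Il6st, Lifr and Osmr, the signal transducer Stat3 and the feedback inhibitor Socs3. Poly(A) RNA had been counted in 12 rat sciatic nerve stumps, in 4 groups of 3. Control stumps had no conduit or drug named in their labels. Stumps labelled CC4:2 and CC4:4 came from truncated-cone conduits of 2 types. VP4:2 stumps came from a 4:2 conduit loaded with verteporfin, a compound known to block the binding of the coactivator YAP to its TEAD partners. What the numbers in 4:2 and 4:4 stand for was not given in the labels. The labels gave neither strain, age, sex, time after surgery nor what the controls had received, and did not say if stumps were taken from different animals. The p-values below therefore measure only the spread between these stumps, part of which may be technical.

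Cytokines of this family signal through gp130, the receptor subunit encoded by Il6st. IL-6 first binds its own receptor Il6r, leukemia inhibitory factor (Lif) brings gp130 together with Lifr, and oncostatin M (Osm) brings it together with Osmr. Janus kinases attached to these receptors then phosphorylate STAT3, which enters the nucleus and switches on genes that include Socs3, whose product binds gp130 and shuts the signal off. In injured peripheral nerve these cytokines are known as products of Schwann cells, fibroblasts and infiltrating leukocytes, and they have been studied for their part in axon regrowth and in neuropathic pain. STAT3 works through phosphorylation, which RNA counts do not measure.

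To show the promoters behind the largest change and behind 2 receptor genes of opposite direction, the 250 bases before the RefSeq start site (assembly GRCr8) are given for 3 members, 5′ to 3′ on the gene's strand. Capitals mark a match to an NF-kB motif (GGGA, any 2 bases, then TTCC) in Il6 and to an AP-1 motif (TGANTCA) in Osmr. Lifr had no match to the motifs searched.
Il6, chr4:5894576-5894825, minus strand: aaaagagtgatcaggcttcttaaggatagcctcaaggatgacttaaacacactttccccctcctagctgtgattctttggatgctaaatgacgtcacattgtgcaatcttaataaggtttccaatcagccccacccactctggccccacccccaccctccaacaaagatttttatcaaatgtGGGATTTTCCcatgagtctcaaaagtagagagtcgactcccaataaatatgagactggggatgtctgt
Osmr, chr2:57688562-57688811, minus strand: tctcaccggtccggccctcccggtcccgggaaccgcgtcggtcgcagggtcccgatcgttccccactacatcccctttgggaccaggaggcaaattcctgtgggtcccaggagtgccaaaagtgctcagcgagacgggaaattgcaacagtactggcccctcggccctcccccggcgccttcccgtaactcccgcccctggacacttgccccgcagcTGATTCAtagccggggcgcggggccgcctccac
Lifr, chr2:57963139-57963388, plus strand: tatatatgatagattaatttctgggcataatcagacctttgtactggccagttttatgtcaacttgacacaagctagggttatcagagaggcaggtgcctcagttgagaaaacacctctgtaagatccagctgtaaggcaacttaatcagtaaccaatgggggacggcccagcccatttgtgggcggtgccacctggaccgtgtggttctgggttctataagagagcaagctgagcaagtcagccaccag

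Of the 10 members, 8 were in the promoter table and Lif and Osm were not. Motifs were searched on both strands. The NF-kB motif lay 68 to 59 bases before the Il6 start and in none of the other 7 (1 of 8), against 1.08% of all 33469 promoters in the table. An AP-1 match stood 33 to 27 bases before the Osmr start and another 142 to 136 bases before the Il11 start (2 of 8), against 6.34% of all promoters. The STAT motif TTCNNNGAA was in 0 of 8 windows and 7.67% of all, and the TEAD motif GGAATG in 0 of 8 and 12.1% of all. These are matches of letters in a short window, and nothing about the binding of a factor follows from them. Where transcription starts in these stumps was not tested, so a window need not be the promoter in use. A motif outside the windows would be missed, so a count of 0 does not show that a gene lacks it. In the same assembly Lif and Osm were next to each other on chromosome 14. Lifr and Osmr lay on chromosome 2 with 1 gene between them, which was not protein coding.

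Levels are given as TMM-scaled CPM (counts relative to the scaled library total), in the order of replicates 1, 2 and 3. They can be compared between stumps for 1 gene but not between genes, since they are not corrected for gene length. Totals ran from 13763106 to 18632301 counts per stump. A gene was called changed at a Benjamini-Hochberg adjusted p under 0.05 in the quasi-likelihood test of edgeR, run over 15712 genes, and changes are log2 fold changes ± SE with 3 stumps a group. Of the members, 9 had enough counts to be tested. Control replicate 1 stood apart from the other controls, with the highest control value for Il6, Osm, Osmr, Socs3 and Il6st, the lowest for Lifr and the lowest summed level of Schwann cell markers. Every comparison below shares samples with others, so their results are not independent of each other.

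CC4:2 stumps held far less RNA for the ligands Il6 and Osm and for Socs3 than control stumps, and more for Lifr and for gp130 itself. In CC4:2 against Control, 7 of the 9 tested members were called, where 43.5% of all tested genes were. Of these, 5 were lower (23.2% of all genes were called lower) and 2 higher (20.3% of all genes). The median change over the 9 members was -1.06, against -0.04 over all genes tested. The members were chosen with earlier results of these data known, so these shares are a description only. In bulk tissue fewer cells of a type and less RNA per cell cannot be told apart.

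**Figure D1:**
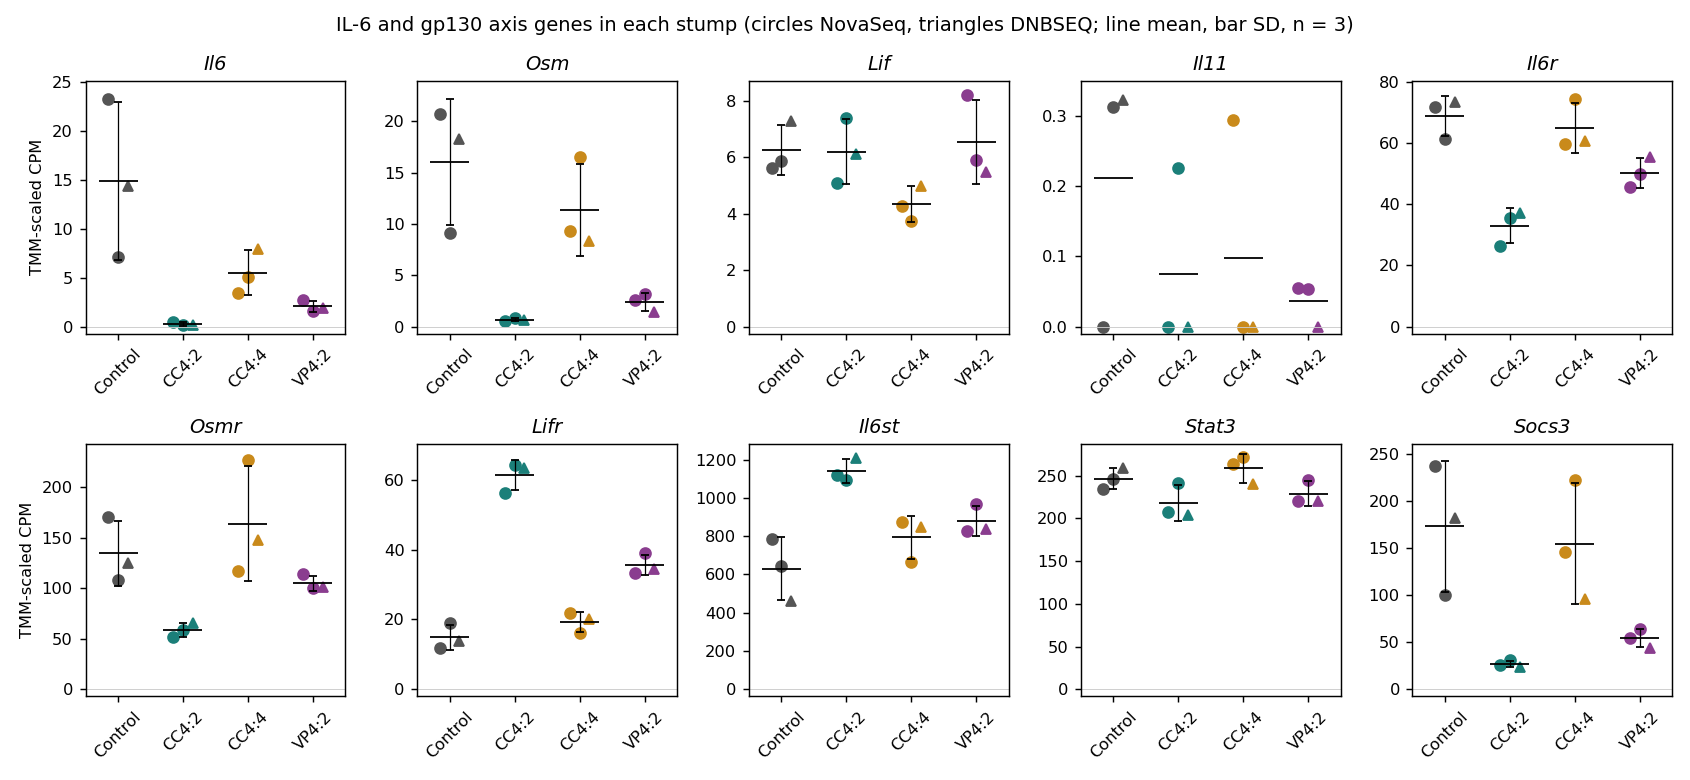
Level of each of the 10 genes in every stump, as TMM-scaled CPM on a linear axis. Points are stumps (circles NovaSeq, triangles DNBSEQ), the line is the group mean and the bar the SD (n = 3, no bar for Il11). CC4:2 stumps were lowest for Il6, Osm, Il6r, Osmr and Socs3 and highest for Lifr and Il6st, with no overlap with Control.

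Il6 (ENSRNOG00000010278), the ligand that gives the family its name, stood at 23.2, 7.11 and 14.3 CPM in Control and at 0.476, 0.169 and 0.157 CPM in CC4:2. CC4:4 stumps had 3.40, 5.08 and 7.93 CPM, and VP4:2 stumps 2.69, 1.61 and 1.89 CPM. Every CC4:2 stump was below every other stump, and only Control and CC4:4 overlapped. The change from Control to CC4:2 was -5.75 ± 0.61 (adjusted p = 1e-04), the largest among the members. The CC4:2 values rest on 9, 3 and 3 counts. With their sum of 15 counts (95% exact Poisson interval 8.40 to 24.7), the Control mean was 55.6 times the CC4:2 mean, and 33.7 to 99.3 times from the counting error of CC4:2 alone. Without CC4:2 replicate 1, which held 9 of these counts, the change was -6.45 (adjusted p = 0.00045).

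Osm (ENSRNOG00000024390), oncostatin M, a cytokine known chiefly from myeloid cells, had the same order of groups. It stood at 20.7, 9.14 and 18.3 CPM in Control and 9.27, 16.5 and 8.34 CPM in CC4:4. VP4:2 stumps had 2.58, 3.17 and 1.46 CPM and CC4:2 stumps 0.582, 0.846 and 0.627 CPM. All CC4:2 stumps were below all VP4:2 stumps, and these below all CC4:4 and Control stumps. Osm fell by 4.54 ± 0.45 on the log2 scale from Control to CC4:2 (adjusted p = 7.2e-05) and by 4.04 ± 0.45 from CC4:4 to CC4:2 (adjusted p = 0.00017). Control and CC4:4 overlapped, at a change of -0.50 ± 0.37 (adjusted p = 0.98).

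Lif (ENSRNOG00000007002), a ligand known to rise in Schwann cells after nerve injury and the neighbour of Osm on the chromosome, passed no test. It stood at 5.62, 5.86 and 7.27 CPM in Control and 5.08, 7.39 and 6.11 CPM in CC4:2. The values were 4.28, 3.73 and 4.99 CPM for CC4:4 and 8.22, 5.91 and 5.46 CPM for VP4:2. The 3 CC4:4 stumps were below all the others. Its change from Control to CC4:2 was -0.01 ± 0.23 (adjusted p = 0.97), and its change from Control to CC4:4 was -0.53 ± 0.23 (adjusted p = 0.93). The remaining ligand, Il11 (ENSRNOG00000017386), was too low to test, with at most 4.8 counts and a value of 0 in 6 of 12 libraries. A count of 0 allowed up to 0.157 to 0.242 CPM at these depths, from counting error only.

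The receptor genes split by direction. Lifr (ENSRNOG00000011696), the partner of gp130 for LIF, stood at 11.8, 18.9 and 13.8 CPM in Control and 21.8, 16.1 and 19.97 CPM in CC4:4. It reached 33.4, 38.9 and 34.4 CPM with the verteporfin-loaded conduit (VP4:2) and 56.3, 64.1 and 63.3 CPM with the unloaded one (CC4:2). VP4:2 stumps were above all CC4:4 and Control stumps and below all CC4:2 stumps. It rose by 2.05 ± 0.18 from Control to CC4:2 (adjusted p = 4.4e-05), a 4.13-fold difference, and was 3.17-fold higher in CC4:2 than in CC4:4 (1.66 ± 0.18, adjusted p = 0.00016). Il6st (ENSRNOG00000013963), gp130, stood at 787, 646 and 461 CPM in Control and 872, 665 and 846 CPM in CC4:4. The VP4:2 values were 828, 970 and 838 CPM, those of CC4:2 1120, 1092 and 1209 CPM. CC4:2 stumps were above all others, while CC4:4 overlapped with both Control and VP4:2. Its rise from Control to CC4:2 was 0.85 ± 0.21 (adjusted p = 0.0077). That call was lost when only these 6 stumps were fitted (0.87, adjusted p = 0.053). It was also lost within the NovaSeq stumps (0.64, adjusted p = 0.14), which are only replicates 1 and 2 of each group.

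Osmr (ENSRNOG00000033192), the receptor subunit for oncostatin M and a neighbour of Lifr, moved the other way. It stood at 171, 108 and 125 CPM in Control and at 117, 227 and 148 CPM in CC4:4. VP4:2 stumps had 114, 100.4 and 101.2 CPM, and CC4:2 stumps 51.6, 58.5 and 66.1 CPM. All CC4:2 stumps were lowest, and VP4:2 overlapped with Control. The change from Control to CC4:2 was -1.20 ± 0.24 (adjusted p = 0.0029) and that from CC4:4 to CC4:2 was -1.48 ± 0.24 (adjusted p = 0.0012). Il6r (ENSRNOG00000020811), the receptor subunit that binds IL-6 and is known from hepatocytes and leukocytes, stood at 72.1, 61.3 and 73.5 CPM in Control and 59.7, 74.5 and 60.7 CPM in CC4:4. It was lower in VP4:2 stumps, at 45.6, 49.8 and 55.6 CPM, and in CC4:2 stumps, at 26.5, 35.6 and 37.1 CPM. Only Control and CC4:4 overlapped. Il6r fell by 1.06 ± 0.16 on the log2 scale from Control to CC4:2 (adjusted p = 0.00049).

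Stat3 (ENSRNOG00000019742), the transcription factor that carries the signal, varied least. It stood at 235, 246 and 259 CPM in Control and 207, 242 and 204 CPM in CC4:2. CC4:4 stumps held 263, 272 and 240 CPM, VP4:2 stumps 220.4, 245 and 220.1 CPM. Every pair of groups overlapped and it passed none of the 6 tests, with a change of -0.18 ± 0.13 from Control to CC4:2 (adjusted p = 0.27). Socs3 (ENSRNOG00000063373), the feedback inhibitor, stood at 237, 99.5 and 181 CPM in Control and 146, 222 and 95.5 CPM in CC4:4. Its values were 54.9, 63.4 and 44.1 CPM with verteporfin (VP4:2) and 25.8, 30.7 and 23.6 CPM without it (CC4:2). CC4:2 stumps were below all VP4:2 stumps, and these below all Control and CC4:4 stumps, which overlapped. The fall from Control to CC4:2 was 6.47-fold (-2.69 ± 0.36, adjusted p = 0.00031). Leaving out any 1 of the 6 libraries, Control replicate 1 included, left 7 members called in CC4:2 against Control. Over these fits 5244 to 7233 of all genes were called.

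CC4:4 stumps, from the other unloaded conduit, were next compared with controls. In CC4:4 against Control edgeR called 0 of the 9 members and 0% of all genes. At an unadjusted p under 0.05 there were 830 of 15712 genes, among them the 2 members Il6 and Lif. That is about the share such a threshold would pass with no difference between the groups. The change in Il6 was -1.44 ± 0.47 (edgeR adjusted p = 0.93). DESeq2 called 10 genes and 0 members. Without Control replicate 1, edgeR called 295 genes and 0 members. Set against CC4:4 directly, CC4:2 stumps had 6 of 9 members called (39.2% of all genes), 5 of them lower (20.7%) and 1 higher (18.5%). Il6 was 19.8-fold lower (-4.31 ± 0.59, adjusted p = 0.00048) and Socs3 5.79-fold lower (-2.53 ± 0.36, adjusted p = 0.00054). The count was 6 with any 1 of these 6 libraries left out, while 4218 to 5392 of all genes were called. Without CC4:2 replicate 1 the Il6 change was -5.00 (adjusted p = 0.0015). Il6st had a change of 0.52 ± 0.21 that was not called (adjusted p = 0.068), though its groups did not overlap.

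Verteporfin-loaded conduits were compared with unloaded ones that carry the same 4:2 label, so by their labels these groups differ in drug loading. Against unloaded CC4:2 conduits, 4 of 9 members were called in VP4:2 (6.23% of all genes), 3 higher (5.23%) and 1 lower (0.999%). Il6 was 7.51-fold higher (2.91 ± 0.59, adjusted p = 0.015), Osm 3.49-fold higher (1.80 ± 0.43, adjusted p = 0.035) and Il6r 1.52-fold higher (0.61 ± 0.15, adjusted p = 0.043). Lifr was 1.72-fold lower (-0.78 ± 0.18, adjusted p = 0.025). Osmr (0.84 ± 0.24, adjusted p = 0.068), Socs3 (1.02 ± 0.34, adjusted p = 0.11) and Il6st (-0.38 ± 0.21, adjusted p = 0.32) were not called. The VP4:2 and CC4:2 stumps of 7 members did not overlap, the 4 called and these 3 that were not, where 32.2% of all tested genes had groups that did not overlap.

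These calls depended on single libraries. No member (0) was called without CC4:2 replicate 2, without CC4:2 replicate 3 or without VP4:2 replicate 1, and 2 were called without CC4:2 replicate 1, VP4:2 replicate 2 or VP4:2 replicate 3. Over these 6 fits the change in Il6 ran from 2.64 to 3.60 (3.60 without CC4:2 replicate 1) with adjusted p from 0.02 to 0.073, that in Osm from 1.55 to 2.06 with 0.033 to 0.11, that in Il6r from 0.47 to 0.70 with 0.054 to 0.17, and that in Lifr from -0.85 to -0.74 with 0.044 to 0.11. Within the NovaSeq stumps (replicates 1 and 2 only) 0 members and 202 of all genes were called. DESeq2 and a fit of only these 6 stumps also called Osmr (adjusted p = 0.014 by each) and Socs3 (adjusted p = 0.035 and 0.016), the latter without Il6r (adjusted p = 0.073).

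**Figure D2:**
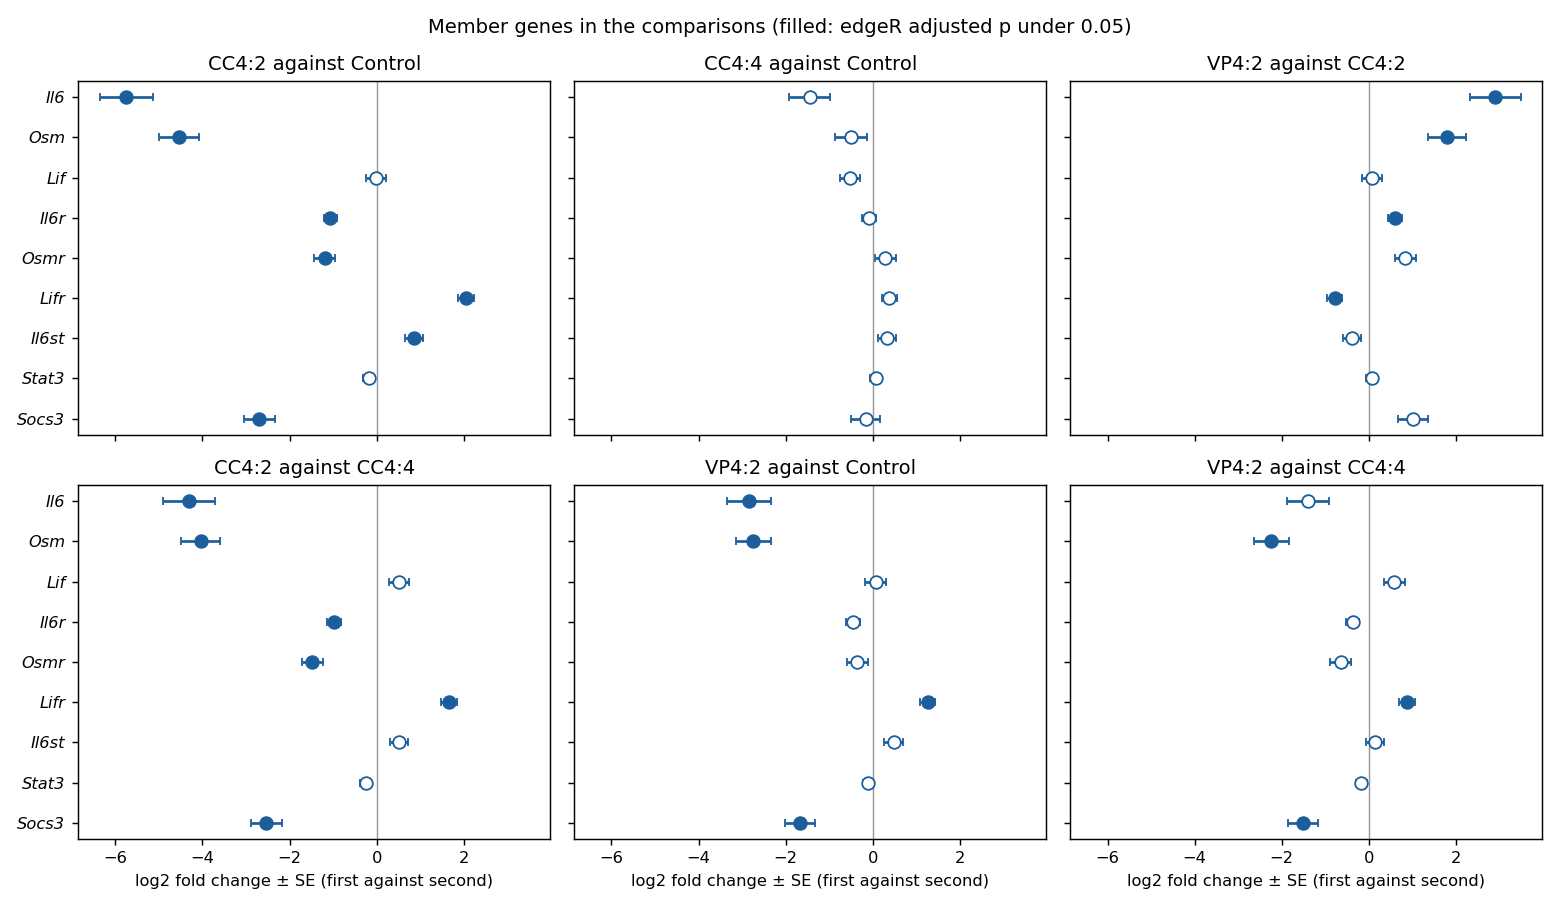
Log2 fold change ± SE of the 9 tested genes in the 6 comparisons, on one linear axis, with filled points where the edgeR adjusted p was under 0.05. Il6 and Osm lie far to the left in CC4:2 against Control (-5.75 and -4.54) and to the right in VP4:2 against CC4:2 (2.91 and 1.80), Lifr the other way (2.05 and -0.78), and no point is filled in CC4:4 against Control.

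Il6, Osm and Socs3 stayed below control levels in VP4:2 stumps, and Lifr above. Against Control, 4 of 9 members were called (18.9% of all genes), 3 lower (9.57%) and 1 higher (9.3%). Il6 was 7.19-fold lower (-2.85 ± 0.50, adjusted p = 0.0065), Osm 6.67-fold lower (-2.74 ± 0.40, adjusted p = 0.0037), Socs3 3.19-fold lower (-1.67 ± 0.34, adjusted p = 0.011) and Lifr 2.40-fold higher (1.26 ± 0.18, adjusted p = 0.003). All 4 were called with any 1 of the 6 libraries left out, and without Control replicate 1 Il6st was also called (0.67, adjusted p = 0.029). Within the NovaSeq stumps (replicates 1 and 2 only) 0 members and 19 of all genes were called. With all stumps, Il6r (-0.45 ± 0.15, adjusted p = 0.062) and Osmr (-0.36 ± 0.24, adjusted p = 0.32) were not called.

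Set against CC4:4, VP4:2 stumps had 3 of 9 members called (11.2% of all genes), with Osm (-2.24 ± 0.40, adjusted p = 0.011) and Socs3 (-1.51 ± 0.34, adjusted p = 0.022) lower (5.51%) and Lifr (0.88 ± 0.18, adjusted p = 0.015) higher (5.7%). Il6 was not called (-1.40 ± 0.49, adjusted p = 0.084). Osm was called with any 1 library left out (adjusted p = 0.018 to 0.049). Without VP4:2 replicate 1, VP4:2 replicate 2 or CC4:4 replicate 2 it was the 1 member called, since Lifr (adjusted p = 0.05, 0.061 and 0.08) and Socs3 (adjusted p = 0.076, 0.063 and 0.092) were lost. Without VP4:2 replicate 3 only Socs3 was lost (adjusted p = 0.076). Within the NovaSeq stumps (replicates 1 and 2 only) 0 members and 29 of all genes were called. Over the 6 comparisons Osm and Lifr were called in 5, Il6 and Socs3 in 4, Il6r in 3, Osmr in 2, Il6st in 1, and Lif and Stat3 in 0. Counted by stumps that do not overlap, which takes no account of the spread, 7 of 9 members stood apart in CC4:2 against Control (49.3% of all tested genes did), 1 in CC4:4 against Control (7.42%) and 8 in CC4:2 against CC4:4 (53.1%). There were 6 in VP4:2 against Control (38.6%) and 7 in VP4:2 against CC4:4 (43.5%).

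The other genes of the pathway were taken from a list of 43, of which 42 had a single row and 37 enough counts to test. Il27ra had 2 rows and was not used. This list, like the members and markers, was chosen with earlier results of these data known. Its counts are therefore a description only. In CC4:2 against Control 26 of the 37 were called (43.5% of all genes), 7 higher (20.3%) and 19 lower (23.2%), and the list's median change was -0.63 against -0.04 over all genes. All 4 tested ligands of this list were called. Ciliary neurotrophic factor (Cntf), a product of myelinating Schwann cells, rose from 12.7 ± 9.1 to 67.5 ± 41.3 CPM (SD, n = 3; 2.42 ± 0.64, adjusted p = 0.011). CC4:2 replicate 1 stood high, and without it the change was 1.79 (adjusted p = 0.045). Cardiotrophin 1 (Ctf1), another ligand that uses Lifr, rose by 1.48 ± 0.31 (adjusted p = 0.0034). Clcf1, a ligand of the CNTF receptor, went the other way (-1.35 ± 0.32, adjusted p = 0.0068).

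Ebi3, the subunit that pairs with p28 to make interleukin 27, ranged widely. It stood at 30.1, 52.9 and 70.3 CPM in Control and 23.5, 57.7 and 34.8 CPM in CC4:4. In VP4:2 it had 6.80, 8.003 and 8.33 CPM, and only 1.06, 0.959 and 1.72 CPM in CC4:2. As with Osm, all CC4:2 stumps were below all VP4:2 stumps, and these below Control and CC4:4. It fell by 5.34 ± 0.44 from Control to CC4:2 on the log2 scale (adjusted p = 3.2e-05). Its partner Il27 was too low to test, as were Ctf2, Il31ra and Reg3b. Serpina3n was not tested either, at 0 CPM in every stump, which does not show that the gene was silent. Both tested receptor genes outside the members rose, where 20.3% of all genes were called higher. Cntfr rose by 2.94 ± 0.40 (adjusted p = 0.00033) and Il11ra1, which binds interleukin 11, by 1.43 ± 0.18 (adjusted p = 0.00027).

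Of 8 kinases, transducers and adaptors, 4 fell from Control to CC4:2 and 1 rose. Of all genes, 23.2% were called lower and 20.3% higher in this comparison, which also holds for the inhibitors and proteases below. The Janus kinases Jak1 (-0.49 ± 0.14, adjusted p = 0.017), Jak2 (-0.99 ± 0.18, adjusted p = 0.0015) and Tyk2 (-0.63 ± 0.17, adjusted p = 0.014) and the adaptor Grb2 (-0.63 ± 0.12, adjusted p = 0.0023) were lower. The calls of Jak1 and Tyk2 were lost if Control replicate 2, Control replicate 3 or CC4:2 replicate 1 was left out, at adjusted p of 0.051 to 0.072. Gab1, a docking protein of receptor signalling, was 2.88-fold higher (1.52 ± 0.19, adjusted p = 2e-04). Among 6 further inhibitors, Socs1 fell by 1.64 ± 0.34 (adjusted p = 0.0035) and Ptpn2, a phosphatase of the Janus kinases, by 1.23 ± 0.17 (adjusted p = 0.00033), while Pias3 had a change of 0.52 ± 0.18 (adjusted p = 0.037) whose call was lost if Control replicate 3, CC4:2 replicate 2 or CC4:2 replicate 3 was left out (adjusted p = 0.11, 0.12 and 0.062). Of the 2 proteases that shed receptors, Adam10 had a change of 0.61 ± 0.18 (adjusted p = 0.016), with its call lost without Control replicate 3 or CC4:2 replicate 1 (adjusted p = 0.05 for each), and Adam17 was not called. The calls of Cntf, Jak1, Tyk2, Pias3 and Adam10 were also lost in a fit of only the 6 stumps compared (adjusted p = 0.058 to 0.12), and these together with Grb2 and Mcl1 within the NovaSeq stumps (adjusted p = 0.061 to 0.23).

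**Figure D3:**
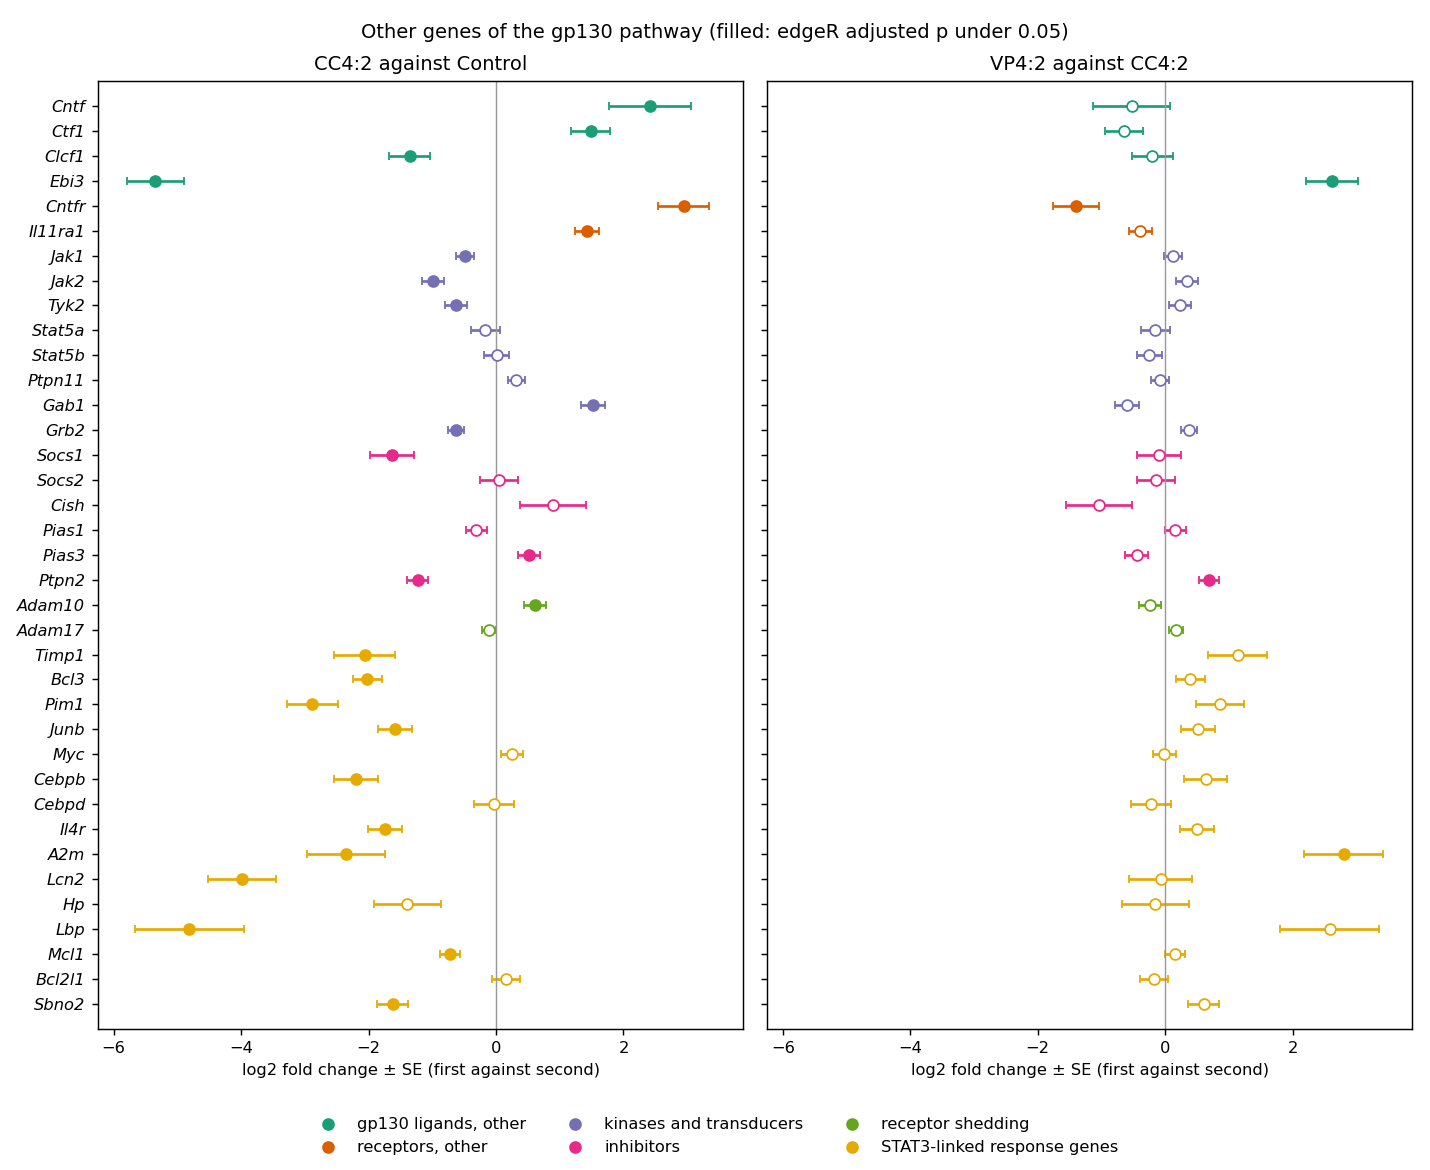
Log2 fold change ± SE of the 37 tested pathway genes, coloured by role, in CC4:2 against Control (left) and VP4:2 against CC4:2 (right). Points are filled where the edgeR adjusted p was under 0.05, which was so for 26 genes on the left and 4 on the right.

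Of 15 tested genes known to respond to STAT3 or to belong to the acute phase, 11 were lower in CC4:2 than in Control (23.2% of all genes were). None (0) was higher, and the list median was -1.75. These genes are part of the list chosen with earlier results of these data known, so the count is a description only. The smallest p-values were those of Bcl3, a coactivator of NF-kB (-2.02 ± 0.23, adjusted p = 0.00015), Lcn2, lipocalin 2 (-3.99 ± 0.53, adjusted p = 0.00032), and the kinase Pim1 (-2.88 ± 0.40, adjusted p = 0.00037). Lcn2 ranged from 43.0 to 128.5 CPM in Control and from 2.92 to 7.95 CPM in CC4:2. The other 8 that fell were Timp1, Junb, Cebpb, Il4r, A2m, Lbp, Mcl1 and Sbno2. Control replicate 1 moved some of them: without it the change in Lbp was -3.10 rather than -4.81, that in Timp1 -1.16 rather than -2.06 and that in A2m -1.71 rather than -2.35. Without CC4:2 replicate 1 the change in A2m was -3.16. Myc (0.25), Cebpd (-0.03), Hp (-1.39) and Bcl2l1 (0.15) were not called. Against CC4:4, 23 of the 37 pathway genes were called (39.2% of all genes), 5 higher (18.5%) and 18 lower (20.7%), 12 of the lower ones from this response list, and in CC4:4 against Control 0 of 37 were called.

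With verteporfin, 4 of 37 pathway genes were called against CC4:2 (6.23% of all genes), 3 higher (5.23%) and 1 lower (0.999%). Ebi3 was higher (2.62 ± 0.41, adjusted p = 0.0037), with any 1 library left out as well. A2m, the acute-phase protease inhibitor alpha-2-macroglobulin, stood at 303, 338 and 253 CPM against 79.6, 33.2 and 15.7 CPM (2.80 ± 0.62, adjusted p = 0.024). Without CC4:2 replicate 1 its change was 3.61 (adjusted p = 0.013), and its call was lost without any 1 of the other 5 libraries (adjusted p = 0.055 to 0.1). Ptpn2 was higher (0.69 ± 0.16, adjusted p = 0.034) and Cntfr lower (-1.40 ± 0.37, adjusted p = 0.047). With 1 library left out, Ptpn2 and Cntfr were still called only without CC4:2 replicate 3, and within the NovaSeq stumps 0 of 37 were called. Lcn2 ranged from 3.54 to 7.57 CPM in VP4:2, within the range of CC4:2, and stayed 16.7-fold below Control (-4.06 ± 0.53, adjusted p = 0.0023). Summed levels of 5 neutrophil markers, given below without Mmp9, were also lower in VP4:2 and CC4:2 than in Control. A link to Lcn2 was not tested. In VP4:2 against Control 16 of 37 were called (18.9% of all genes), 3 higher (9.3%) and 13 lower (9.57%), and in VP4:2 against CC4:4 10 (11.2%), 2 higher (5.7%) and 8 lower (5.51%).

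The genes most like 3 members over the 12 stumps were found by Pearson's r on log2 CPM among tested genes with usual symbols. The groups differed in markers of several cell types, so r is a description only. Nearest to Socs3 was Osm (0.99), followed by Sbno2, a STAT3-induced coregulator, Acot7, Gpr84 and Rnf19b (each 0.97). Gpr84, a receptor of myeloid cells, had group means of 7.74 CPM for Control, 5.51 CPM for CC4:4, 0.651 CPM for VP4:2 and 0.036 CPM for CC4:2. Nearest to Il6 were Tmem37 and Necap2 (0.98), and Litaf, Vmp1 and Spg21 (0.97). Those nearest to Lifr were Pdzd2, Egfr, Boc, Sptbn1 and Col4a4 (each 0.99). Egfr, the receptor of epidermal growth factor, had means of 12.96 CPM for Control, 17.9 CPM for CC4:4, 32.7 CPM for VP4:2 and 58.6 CPM for CC4:2.

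Markers of several cell types moved with these genes. In CC4:2 against Control 20.3% of all genes were called higher and 23.2% lower. Higher were 6 of 6 Schwann cell markers, 3 of 3 perineurial markers and 5 of 5 adipocyte markers. Lower were 5 of 6 neutrophil markers, 5 of 8 macrophage markers, 5 of 5 T cell markers and 5 of 5 markers of B and plasma cells. Of 5 fibroblast and 5 endothelial markers, 1 each was higher, near the share of all genes, and 0 of 3 skeletal muscle markers were called. The summed neutrophil level was 305 to 734 CPM over the controls, 365 to 744 CPM over CC4:4 stumps, 93.7 to 387 CPM over VP4:2 stumps and 20.6 to 41.0 CPM over CC4:2 stumps. Most of the VP4:2 sum was Mmp9, a protease that other cells also make (79.2, 187 and 376 CPM in VP4:2 against 27.1, 25.04 and 11.2 CPM in CC4:2). The other 5 neutrophil markers summed to 11.3 to 15.5 CPM in VP4:2 and 8.85 to 13.9 CPM in CC4:2, against 255 to 512 CPM in Control and 257 to 681 CPM in CC4:4. Summed macrophage markers ran from 1998 to 2630 CPM (Control), 1289 to 2222 CPM (CC4:4), 1822 to 2169 CPM (VP4:2) and 836 to 1222 CPM (CC4:2). Schwann cell markers summed to 244 to 3273 CPM (Control), 1792 to 2376 CPM (CC4:4), 8860 to 13078 CPM (VP4:2) and 9612 to 25063 CPM (CC4:2), so they were found in every stump. Marker levels still varied within groups. Control replicate 1 held 244 CPM of Schwann cell markers, against 3273 and 1840 in replicates 2 and 3. Its fibroblast markers summed to 55175 CPM, against 13436 and 12334. Skeletal muscle markers summed to 0.506 CPM in Control replicate 1 and up to 8859 CPM in CC4:2 replicate 2. No defining marker was at 0 in any stump, except 1 skeletal muscle marker in 1 control stump.

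**Figure D4:**
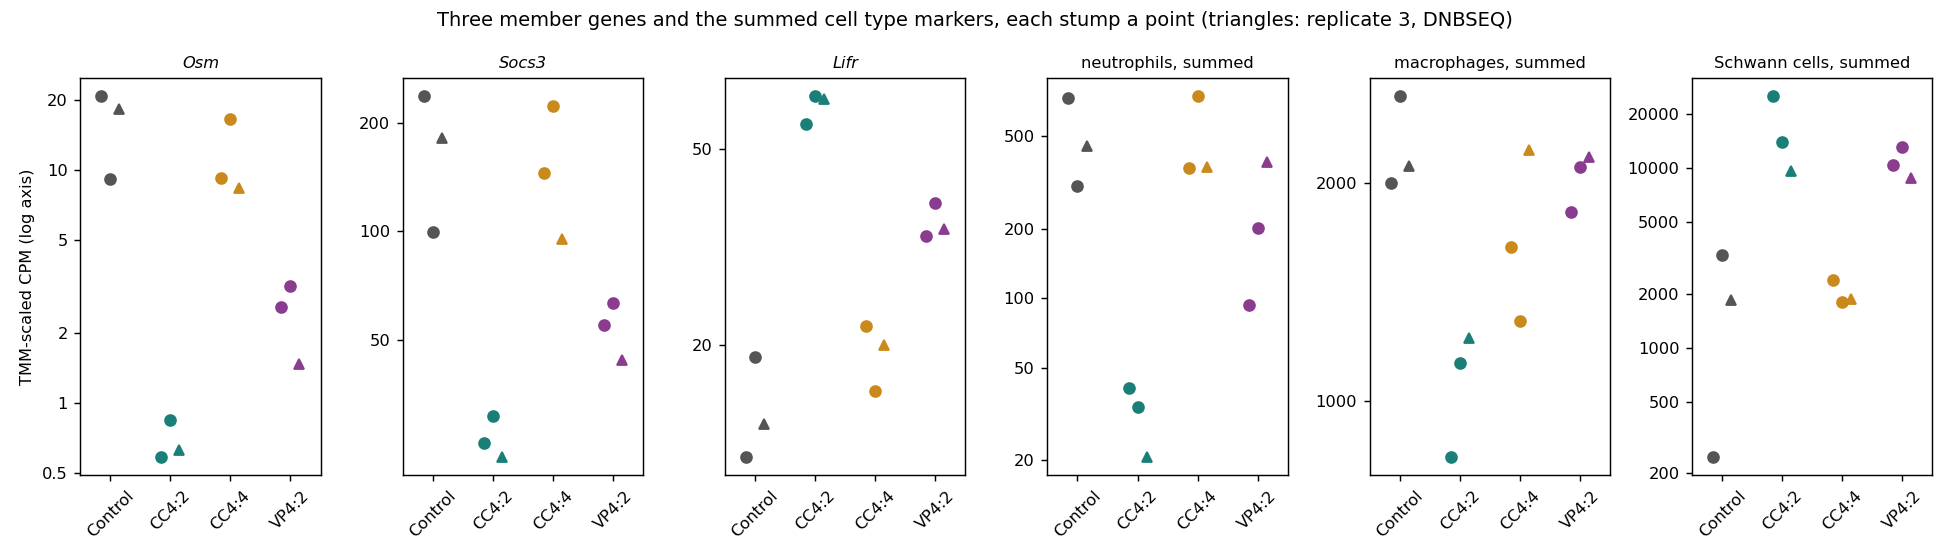
Osm, Socs3 and Lifr beside the summed levels of 6 neutrophil, 8 macrophage and 6 Schwann cell markers in each stump, as TMM-scaled CPM on log axes (triangles are replicate 3). CC4:2 stumps were lowest for Osm, Socs3, neutrophil and macrophage markers (the VP4:2 neutrophil sum is mostly Mmp9), while the VP4:2 and CC4:2 ranges of Schwann cell markers overlapped and those of Lifr did not.

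Between VP4:2 and CC4:2, Il6, Osm and Il6r were called higher. So were 4 of 8 macrophage markers, 3 of 5 T cell markers and 1 of 6 neutrophil markers (Mmp9), where 5.23% of all genes were. There were 0 markers called lower, where 0.999% of all genes were. The summed macrophage and T cell levels of these groups did not overlap, with T cells at 46.3 to 65.4 CPM in VP4:2 and 8.42 to 27.5 in CC4:2. Lifr was lower there by 0.78 ± 0.18 on the log2 scale. None (0) of the 6 Schwann cell and 3 perineurial markers was called, but all had negative changes, with medians of -0.64 and -1.002. Perineurial markers summed to 1449 to 2016 CPM in VP4:2 and 3723 to 4255 in CC4:2 and did not overlap. The part of these cell types in the changes of the 10 genes and of the other pathway genes was not tested.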

How the data were processed

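Per the labels, 12 libraries of poly(A) RNA, stranded and read in pairs, were made from rat sciatic nerve stumps, with replicates 1 and 2 on a NovaSeq X Plus and replicate 3 on a DNBSEQ-T7. The authors deposited 1 gene table of expected counts (not all whole numbers) in 12 identical copies (11 not used). Per the submitters' processing notes, HISAT2, StringTie, RSEM and DESeq2 were used. For versions, roles, build and annotation the entry is "not given in the sources used here". Expected counts were rounded and tested with edgeR 4.0.16 (limma 3.58.1, R 4.3.3) after TMM scaling and filterByExpr, in 1 fit of 12 samples with 8 residual degrees of freedom and no covariate. Each SE was worked back from the change and its F statistic. Log2 CPM used a prior count of 2. Depth of 13763106 to 18632301 counts per stump limits the precision of low genes. Named genes were all members, up to 3 called genes of smallest p per role list and comparison, lists described whole, the 5 genes nearest to Il6, Socs3 and Lifr, and markers. Some genes of the pathway lists are not reported here and were left out of their counts. Members and lists were chosen with earlier results of these data known. Alternatives were RLE scaling, no filter, DESeq2 1.42.0, only the 6 stumps compared, a replicate block, NovaSeq stumps only, no immunoglobulin genes and each library left out. Symbols came from the table and promoters from RefSeq (GRCr8) by symbol. Replicates of a group differed by more than sampling noise. Overlapping genes could share reads.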

Additional observations from a re-analysis of the deposited data

How the results depend on the processing

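The counts of members and pathway genes called kept within 1.5 times under every alternative run for CC4:2 against Control, CC4:2 against CC4:4 and CC4:4 against Control. In VP4:2 against CC4:2, 4 members and 4 pathway genes were called, but 7 pathway genes with DESeq2 and 7 with only the 6 stumps compared, and 0 members and 0 pathway genes within NovaSeq stumps. With single libraries left out these were 0 to 2 members and 1 to 3 pathway genes. In VP4:2 against Control 0 members and 0 pathway genes were called within NovaSeq stumps, with 10 to 18 pathway genes (16 with all libraries) over single libraries left out. In VP4:2 against CC4:4 0 members and 1 pathway gene were called within NovaSeq stumps, 17 pathway genes with DESeq2 and 17 with only the 6 stumps (10 otherwise), and 1 to 3 members and 2 to 9 pathway genes with single libraries left out. A term for sequencing platform, chosen after seeing the data, left 3 members called in VP4:2 against CC4:2. Over all groups, stumps with the same replicate number did not consistently deviate together (r of -0.40 to 0.43, median 0.025, over 0.1 in 7 of 18 pairs). Pairs of different number had r of -0.42 to 0.40 (median -0.016, over 0.1 in 9 of 36). Only 3 of 12 stumps were closest to their own number. Between CC4:2 and VP4:2, r was 0.12, 0.28 and 0.43 for the same number and -0.42 to 0.18 for different ones. Between Control and CC4:4, same-number r was -0.14, -0.056 and -0.40. With the replicate number as a block, 2 members and 2 pathway genes were called in VP4:2 against CC4:2. Changes near 0 turned sign in 13 fits, none of them called: Lif in CC4:2 against Control (0.14 within NovaSeq, 0.0036 without immunoglobulin genes, -0.16 to 0.13 with single libraries left out), in VP4:2 against Control (-0.13 to 0.21) and in VP4:2 against CC4:2 (-0.12 to 0.22), and, in CC4:4 against Control, Il6r (0.046 within NovaSeq), Socs3 (0.17 within NovaSeq, -0.50 to 0.15 with single libraries left out) and Osmr (-0.0085 to 0.50). The cause was not tested. Over all genes, calls in VP4:2 against CC4:2 went from 979 to 1868 with DESeq2 and 202 within NovaSeq stumps, in CC4:2 against Control from 6835 to 4363 with only the 6 stumps and 3220 within NovaSeq, in CC4:2 against CC4:4 from 6156 to 3253 within NovaSeq, in VP4:2 against Control from 2964 to 1869 with only the 6 stumps and 19 within NovaSeq, and in VP4:2 against CC4:4 from 1762 to 3083 with DESeq2, 3321 with only the 6 stumps and 29 within NovaSeq. With single libraries left out they ran from 0 to 295 in CC4:4 against Control (295 without Control replicate 1; 10 with DESeq2), 466 to 746 in VP4:2 against CC4:2, 1166 to 4294 in VP4:2 against Control and 232 to 1175 in VP4:2 against CC4:4. For CC4:2 against Control this range was 5244 to 7233, and for CC4:2 against CC4:4 it was 4218 to 5392. Depth limits Il6 in CC4:2 (15 counts) and Il11 (at most 4.8 counts).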
